A study of Mus musculus with 9 samples.

Results

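Long noncoding RNAs (lncRNAs) were examined here in mouse hematopoietic stem cells (HSCs), with the members chosen by one measured property, a level of at least 5 CPM (the count of a gene scaled to the total of its library) in every library. The count file holds 11288 genes annotated as lncRNA among 56748 genes, and 9411 of these lncRNAs had a count in some library. Of the 11288, 668 reached 5 CPM in at least 1 library and 91 (0.806%) reached it in all 9. The imprinted lncRNAs H19, Meg3, Rian and Mirg were left out by name, although 0 of the 4 would have passed the minimum. For comparison, 8287 of 21970 protein-coding genes (37.7%) reached the same level in every library.

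The libraries came from bone marrow HSCs of female C57BL/6 mice, sorted in all 3 groups as Lin- Sca-1+ c-Kit+ CD48- CD150+ cells. One group was young (yHSCs, 6 to 10 weeks of age), and the other 2 were pre-aged (paHSCs, 14 to 16 months) and were split by surface P-selectin, the product of Selp, into Selp_low paHSCs and Selp_high paHSCs. P-selectin is an adhesion molecule best known from platelets and activated endothelium. Each group held 3 biological replicates, and the labels name no treatment. How many mice went into each library is not given in the sources used here.

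LncRNAs are transcripts longer than most small RNAs that are not known to encode a protein. Some act in the nucleus, where they hold together bodies such as paraspeckles or silence genes on the chromosome they come from. Others are made mainly to carry small RNAs in their introns, and others arise beside the promoters of coding genes. Many are expressed in few cell types and at low levels, so those found in every library of a cell type make up a small and mixed class.

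Several members carry functional sequences that a reader can recognize. The host genes Mir142hg, Dleu2 and Ftx hold miRNAs, and their mature forms are shown because Mir142hg gave one of the largest differences between the Selp groups. The sequences are from RefSeq (GRCm38.p6), and capitals mark the seed, bases 2 to 8, through which a miRNA pairs with its targets.
mmu-miR-142a-5p (Mir142hg): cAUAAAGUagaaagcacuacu
mmu-miR-142a-3p (Mir142hg): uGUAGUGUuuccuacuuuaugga
mmu-miR-15a-5p (Dleu2): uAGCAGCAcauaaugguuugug
mmu-miR-16-5p (Dleu2): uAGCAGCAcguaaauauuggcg
mmu-miR-421-5p (Ftx): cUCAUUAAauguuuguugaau
mmu-miR-374b-5p (Ftx): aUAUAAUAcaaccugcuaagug
Among these 6, miR-15a-5p and miR-16-5p share the seed AGCAGCA, and the other 4 each have a seed of their own. Mature miRNAs were not measured, and the counts below are those of the host transcripts.

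Oip5os1, also known as Cyrano, and Norad act through sites along their length. Oip5os1 carries an extended site for miR-7, a miRNA whose decay it is known to direct, and Norad is known to bind Pumilio proteins, which recognize the letters TGTANATA. The longest Oip5os1 transcript of the GENCODE M21 set (GRCm38) has 8300 bases and 2 matches to the miR-7 seed. One of them is preceded by a second block of 13 bases complementary to the rest of miR-7, with 4 unpaired bases between, and both blocks are in capitals below. In the Norad transcript of 4915 bases the letters TGTANATA occur 11 times on the sense strand. Only 2 of 622 lncRNA transcripts of at least 4000 bases in the same set, Norad included, hold as many, and the median is 0. The first 2 Norad sites are shown with the motif in capitals.
mmu-miR-7a-5p: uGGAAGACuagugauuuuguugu
Oip5os1 site, bases 2934 to 2960: aACAACAAAATCACcaatGTCTTCCat
Norad site, motif at bases 651 to 658: agaagtcctgTGTATATAatatgaaaaa
Norad site, motif at bases 1147 to 1154: gtaaacatgcTGTAAATAcctttttgtt
These sites are part of the transcripts that were counted. Binding to them was not measured.

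Members sat close to coding genes more often than lncRNAs at large. By the positions in the count file (mm39), 35 of the 91 (38.5%) started within 1 kb of the start of a coding gene on the opposite strand, compared with 15.6% of all 11288 lncRNAs. Examples are Snhg1 beside Slc3a2, Zfas1 beside Znfx1 and Gm20186 beside Lsm8, which encodes a subunit of a spliceosomal RNA-binding ring. Overlap with a coding gene on the same strand was found for 5 members (5.49%) and 5.93% of all lncRNAs, and overlap on the opposite strand only for another 33 members (36.3%) and 32.8% of all. A further 29 members (31.9%) lay over 5 kb from any coding gene, against 46.8% of all lncRNAs. The members were also longer, with a median exonic length of 3650 bases (range 680 to 93092), compared with 1068 bases over all lncRNAs. Genes on the same stretch of DNA share reads that a count without strand cannot assign, and the cDNA kit used does not mark strand. For the overlapping members, reads in bases that the lncRNA shares with its partner can therefore not be assigned to one of them.

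**Figure D1:**
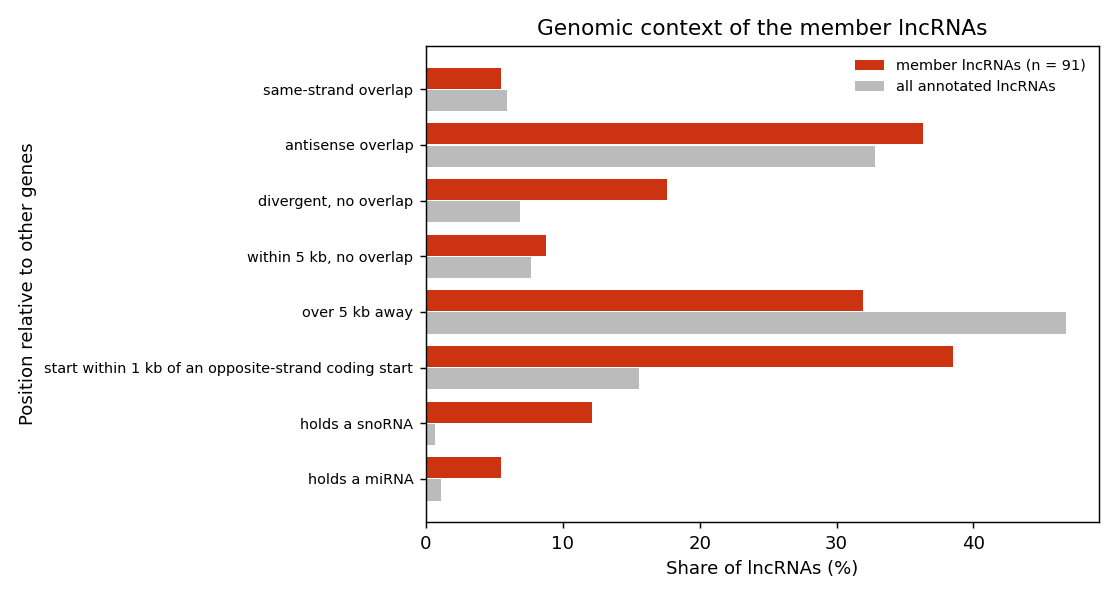
Share of the 91 member lncRNAs (red) and of all 11288 annotated lncRNAs (grey) in each position relative to other genes, in percent, from the coordinates of the count file (mm39). The first 5 rows divide each set once, and the last 3 rows are separate properties. Members stand above all lncRNAs for starts within 1 kb of an opposite-strand coding start (38.5% against 15.6%) and for snoRNA genes inside (12.1% against 0.629%).

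Genes for small nucleolar RNAs (snoRNAs), the guides for chemical modification of ribosomal RNA, lay inside 11 of the 91 members (12.1%), compared with 0.629% of all lncRNAs. Likewise, 5 members (5.49%) hold a miRNA gene, compared with 1.08%. Gas5, whose introns carry 10 snoRNAs, and Snhg1, which carries 8, had the most. Transcripts of this class are known to begin often within a run of pyrimidines (C or T), a start shared with ribosomal protein genes. Such a run of 7 or more, on the sense strand and touching the stretch from 5 bases before to 20 after a RefSeq start, was found in 4 of 9 snoRNA hosts with an entry (44.4%) and in 24.4% of the 27025 genes of the table. The 30 bases before and the 30 after the start are shown for the 4 hosts with such a run, with the longest run near the start in capitals. That run spans the RefSeq start only in 2410006H16Rik, and in Snhg1, Snhg5 and Snhg16 it begins downstream of the start.
Snhg1, chr19:8723457-8723516, plus strand: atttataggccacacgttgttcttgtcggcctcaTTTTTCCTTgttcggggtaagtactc
Snhg5, chr9:88522868-88522927, minus strand: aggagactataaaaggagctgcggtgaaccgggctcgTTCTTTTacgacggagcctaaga
Snhg16, chr11:116671630-116671689, plus strand: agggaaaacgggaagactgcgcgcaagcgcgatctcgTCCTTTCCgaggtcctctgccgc
2410006H16Rik, chr11:62602847-62602906, plus strand: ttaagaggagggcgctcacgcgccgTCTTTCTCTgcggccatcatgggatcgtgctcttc
These windows come from RefSeq on GRCm38.p6, and the positions belong to that build, not to the mm39 positions of the counts.

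In the RefSeq table, 58 of the 91 members had a promoter entry of 300 bases (250 before to 50 after the start). These promoters were rich in CG dinucleotides. A ratio of observed to expected CG of at least 0.6 was reached by 38 of the 58 (65.5%), compared with 38.4% of 27025 genes, and the median ratio was 0.766 against 0.415. The letters CCGGAAG, the core read by ETS factors, occurred on either strand in 24.1% of the members and 9.93% of all genes. GGGCGG, the core read by Sp1, was found in 58.6% and 38.2%, and CCAAT in 48.3% and 41.1%, whereas TATAAA occurred in 12.1% of the members and 15.7% of all genes. These shares describe letters in a window, not factor binding. The 27025 genes were not chosen by expression, as the members were, so the shares cannot be read as particular to these lncRNAs.

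Levels were compared after TMM normalisation, which sets the libraries to a common scale by the bulk of their genes. Total counts ranged from 24866975 to 35375310, and 5 CPM corresponded to 124.3 to 176.9 counts, so no member rested on few reads. LncRNAs took 0.6965% to 1.38% of the counts of a library, and the 91 members took 0.3024% to 0.6677%. Some libraries stood apart. Fewer lncRNAs had a count in yHSC replicate 2 (3296) and in Selp_high replicates 1 and 3 (3342 and 4167) than elsewhere (5957 to 6773). The same held for all genes (21094, 21755 and 25192, against 31236 to 34143). Total counts of those libraries were 33205140 to 35375310, and the cause was not tested. Immunoglobulin genes made up 41% of the counts of Selp_low replicate 2 and between 0.069% and 3.9% elsewhere, and summed neutrophil markers (8 of 8 in the file) reached 204000 CPM in Selp_low replicate 3 and 63200 CPM in yHSC replicate 1, within an overall range that began at 534 CPM. Summed HSC markers (9 of 9, among them Kit and Mecom) were detected in all libraries, at 1020 to 2270 CPM in yHSCs, 796 to 1490 CPM in Selp_low paHSCs and 2120 to 3060 CPM in Selp_high paHSCs. Of these sums, Ly6a alone was 635, 879 and 69.6 CPM in Selp_low replicates 1, 2 and 3. It was 144 to 188 CPM in yHSCs and 173 to 374 CPM in Selp_high paHSCs. Summed T and NK cell markers (6 of 6) were 288, 919 and 627 CPM in Selp_low paHSCs and 48.3 to 111 CPM in the other 2 groups. In Selp_low replicate 3, Nkg7 alone was 619 CPM. The T cell gene Cd3g was 83.7, 226 and 0.824 CPM in Selp_low replicates 1, 2 and 3. Megakaryocyte and platelet markers (7 of 7) summed to 117 to 182 CPM in yHSCs, where Gp1bb was at 0, to 153 to 2090 CPM in Selp_low paHSCs and to 1250 to 6920 CPM in Selp_high paHSCs. The part of these cells in the results below was not tested, and in bulk RNA fewer cells of a type cannot be told apart from less RNA per cell. Selp_low replicate 2 held the lowest raw CPM for 52 of the 91 members, and its TMM factor was 0.545, so the rule weighed on that library most. The lowest raw CPM of the members nearest the minimum was 5.06 for Tnfsf13os, 5.11 for Gm2629 and 5.15 for Gm16124, and those just outside it were Dubr at 4.95, Gm20939 at 4.88 and ENSMUSG00000120082 at 4.88.

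Mean normalised levels of the members ran from 8.55 to 625 CPM with a median of 23.4. Malat1, a nuclear speckle RNA, alone made up 13.3% of their summed level, and the 10 most abundant made up 52.4%. Only 10 members averaged 100 CPM or more, and 53 averaged under 30 CPM. Per kilobase of exonic length, which is the scale on which genes can be compared, the order changed. The highest mean levels were 160 RPKM (CPM per kilobase) for AW112010, an interferon-responsive transcript of immune cells, then 146 for ENSMUSG00000120992, which starts 570 bases from the start of the valyl-tRNA synthetase gene Vars, 128 for Gm19590, 89.4 for Malat1 and 68.6 for Gas5. ENSMUSG00000120224, AI662270, Mir142hg, AI506816 and ENSMUSG00000120250 followed between 46.1 and 27.4. Kcnq1ot1, the antisense RNA that silences genes of the Kcnq1 imprinted domain, had the longest model (93092 bases) and stood at 0.266.

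**Figure D2:**
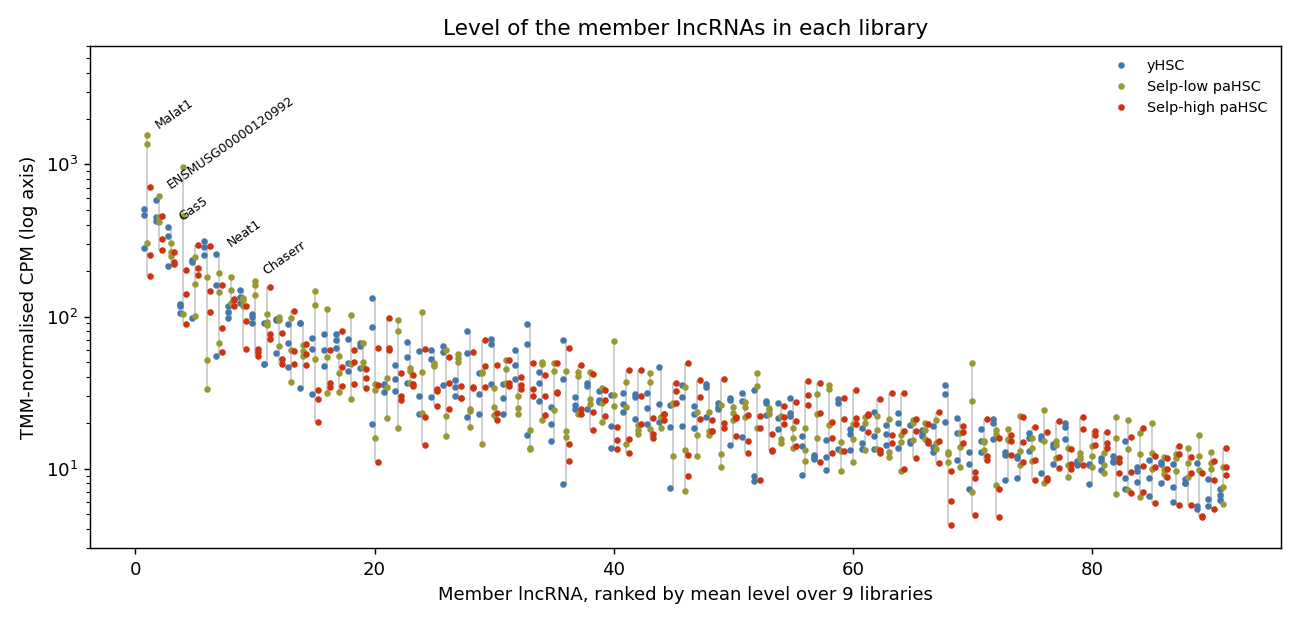
TMM-normalised CPM (log axis) of each of the 91 member lncRNAs in the 9 libraries, ranked by mean level, with yHSC libraries in blue, Selp-low paHSC in olive and Selp-high paHSC in red. Grey lines join the lowest and the highest library, a median span of 2.67-fold, and most members show the 3 colours mixed.

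The level of a member varied between libraries by a median of 2.67-fold from lowest to highest. For 13 members the span was under 2-fold, the narrowest being Gm48226 (1.34-fold, 14.8 to 19.9 CPM), Gm50240 (1.48-fold) and 2810013P06Rik (1.68-fold). The widest spans were those of Peg13 (12-fold), AW112010 (10.8-fold) and 5830428M24Rik (10-fold), and in each the libraries of a group differed widely. Peg13, a paternally expressed RNA within Trappc9, was 19.8, 85.6 and 133 CPM in yHSCs, 16, 35.8 and 33 CPM in Selp_low paHSCs and 11.1, 61.9 and 35.4 CPM in Selp_high paHSCs. AW112010 was 458 and 955 CPM in Selp_low replicates 1 and 2 and 88.8 to 202 CPM in the other 7 libraries. Its highest libraries were also those with the most B and plasma cell marker RNA (5780 and 107000 CPM summed over 9 of 9 markers, against 424 to 3980 CPM elsewhere). They also held the most RNA of the T cell gene Cd3g (83.7 and 226 CPM, against 0.102 to 5.44 CPM elsewhere).

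The comparison between the 2 pre-aged populations asked which transcripts separate HSCs with high surface P-selectin from those with low. None of the 91 members passed the threshold (edgeR quasi-likelihood test, Benjamini-Hochberg adjusted p of 0.05 or less and a log2 fold change of at least 1 in size), and 0% of all 20370 genes tested passed it. An unadjusted p under 0.05 was found for 14 members (15.4%), 4 higher and 10 lower in Selp_high paHSCs, against 12.5% of all genes and 15% of the coding genes with the same minimum level. The 3 libraries of one group lay wholly above the other for 10 members that were higher and 9 that were lower in Selp_high paHSCs (11% and 9.89%), near the 10.3% and 10.6% of all genes. The member median log2 fold change was -0.07, compared with -0.11 over all genes tested and 0.04 over the coding genes of the same minimum level. DESeq2, the tool of the study, called 2 members, Chaserr and Mir142hg, both lower, among 2.4% of genes. The labels name no pairing of libraries. With the replicate number as a block, which treats same-numbered libraries as pairs, DESeq2 called 12 members (13.2%), 4 higher and 8 lower. It called 10.4% of all genes and 7.05% of the coding genes with the same minimum, while edgeR with the same block again called 0. The 12 were Firre, 5033406O09Rik, D130058E05Rik and Gm19590 (higher) and Chaserr, Mir142hg, Malat1, Gm20186, Lockd, AW112010, 5830428M24Rik and Tnfsf13os (lower).

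Chaserr differed between all 3 groups without overlap. It is known as an RNA that restrains its neighbour Chd2, a chromatin remodeller gene, and lies upstream of it on chromosome 7 (73189549 to 73208143, minus strand, mm39). It was 160, 139 and 170 CPM in Selp_low paHSCs, 90.4, 104 and 99.1 CPM in yHSCs and 55.2, 58.5 and 61.3 CPM in Selp_high paHSCs, so none of the 3 groups overlapped another. The difference between the pre-aged groups was -1.43 on the log2 scale (SE 0.22, edgeR adjusted p = 0.338, DESeq2 adjusted p = 0.0163), and it stayed between -1.51 and -1.36 under all 22 alternatives. DESeq2 kept this call whichever library was left out, except Selp_high replicate 3. Selp_high paHSCs over yHSCs gave -0.78 (SE 0.21, edgeR adjusted p = 0.325; DESeq2 -0.80, adjusted p = 0.0432, under the fold minimum), and Selp_low paHSCs over yHSCs gave 0.72 (SE 0.20, edgeR adjusted p = 0.332). Chd2 itself was 47.6, 49.3 and 19.3 CPM in Selp_low paHSCs, 28.9, 36.4 and 36.2 CPM in yHSCs and 18, 17.3 and 23.8 CPM in Selp_high paHSCs. Selp_high over Selp_low was -0.99 for Chd2 (edgeR adjusted p = 0.392), with 1 Selp_low library inside the range of the Selp_high group. The annotated models of both genes overlap on one strand, so reads in shared bases cannot be assigned to one of them.

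The Chaserr promoter is shown because the groups of this RNA stood apart in all 3 comparisons. It is RefSeq sequence, GRCm38.p6, chr7:73558346-73558645, minus strand, 250 bases of it before the start, and with the letters AAGATGG, known as the core read by YY1, in capitals. They occur on either strand in 7 of 58 members (12.1%) and in 7.28% of all genes.
Chaserr: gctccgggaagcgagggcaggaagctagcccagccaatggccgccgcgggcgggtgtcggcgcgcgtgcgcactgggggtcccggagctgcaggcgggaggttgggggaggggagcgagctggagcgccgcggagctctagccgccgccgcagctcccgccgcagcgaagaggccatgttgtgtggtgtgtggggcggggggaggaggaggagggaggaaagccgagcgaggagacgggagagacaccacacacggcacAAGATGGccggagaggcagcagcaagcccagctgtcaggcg

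Mir142hg, the host of the blood-cell miRNA miR-142 printed above, had the largest fold change between the pre-aged groups (-1.97, SE 0.43, edgeR adjusted p = 0.338, DESeq2 adjusted p = 0.0215). It was 119, 146 and 52.4 CPM in Selp_low paHSCs and 28.8, 33 and 20.2 CPM in Selp_high paHSCs, while yHSCs, at 30.8, 72.5 and 61.1 CPM, overlapped both. The 2 libraries above 100 CPM were again Selp_low replicates 1 and 2, which held the most B and plasma cell marker RNA and the most Cd3g. The DESeq2 call was lost without Selp_low replicate 1 or 2 or without Selp_high replicate 1 or 3 (adjusted p of 0.0833, 0.236, 0.0513 and 0.118), and without Selp_low replicate 3 the adjusted p was 1.3e-05. The edgeR fold change stayed between -2.29 and -1.65 without a library, and DESeq2 with the replicate block gave -1.87 (adjusted p = 1.25e-07). MiR-142 is made by blood cells of most lineages, and the part of other cells in the difference was not tested.

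Gm20186, which starts 46 bases from the start of Lsm8, was 68.6, 26 and 30.3 CPM in Selp_low paHSCs and 18.7, 15.5 and 13.4 CPM in Selp_high paHSCs (-1.40, SE 0.43, edgeR adjusted p = 0.338). Lsm8 was also without overlap, at 87.5, 102 and 146 CPM and at 66.1, 68 and 75.9 CPM (-0.68, edgeR adjusted p = 0.373). The library with the most Gm20186 was the one with the least Lsm8 among the Selp_low libraries. Without Selp_low replicate 1 the fold change of Gm20186 moved from -1.40 to -0.81. With the replicate block DESeq2 gave -1.28 (adjusted p = 0.00406).

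The differences of over 1 on the log2 scale toward Selp_high paHSCs, without overlap, were those of Firre, 5033406O09Rik and D130058E05Rik, and none of them passed the edgeR threshold. DESeq2 with the replicate block called all 3 (adjusted p of 0.00279, 0.00136 and 0.00489, in that order). Firre, an X-linked RNA that anchors chromatin in the nucleus, was 33.4, 49.7 and 30.1 CPM in Selp_high paHSCs and 18, 13.6 and 13.5 CPM in Selp_low paHSCs (1.32, SE 0.31, edgeR adjusted p = 0.338). In yHSCs it was 16.7, 89.7 and 66.2 CPM, a range that overlaps both pre-aged groups. The transcript 5033406O09Rik, over 5 kb from any coding gene on chromosome 12, was 98, 60.1 and 61.8 CPM in Selp_high paHSCs and 39.5, 21.6 and 34.5 CPM in Selp_low paHSCs (1.19, SE 0.33, edgeR adjusted p = 0.338). D130058E05Rik was the other, at 26.1, 30.6 and 37.7 CPM in Selp_high paHSCs and 13.2, 11.3 and 18.5 CPM in Selp_low paHSCs (1.13, SE 0.31, edgeR adjusted p = 0.338). It lies antisense to the homeobox gene Gbx2, which was 12.3, 9.83 and 12.2 CPM in the first group and 5.47, 2.17 and 8.8 CPM in the second (1.05, edgeR adjusted p = 0.466). Since strand was not marked, reads in bases that this pair shares cannot be assigned to one of them.

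**Figure D3:**
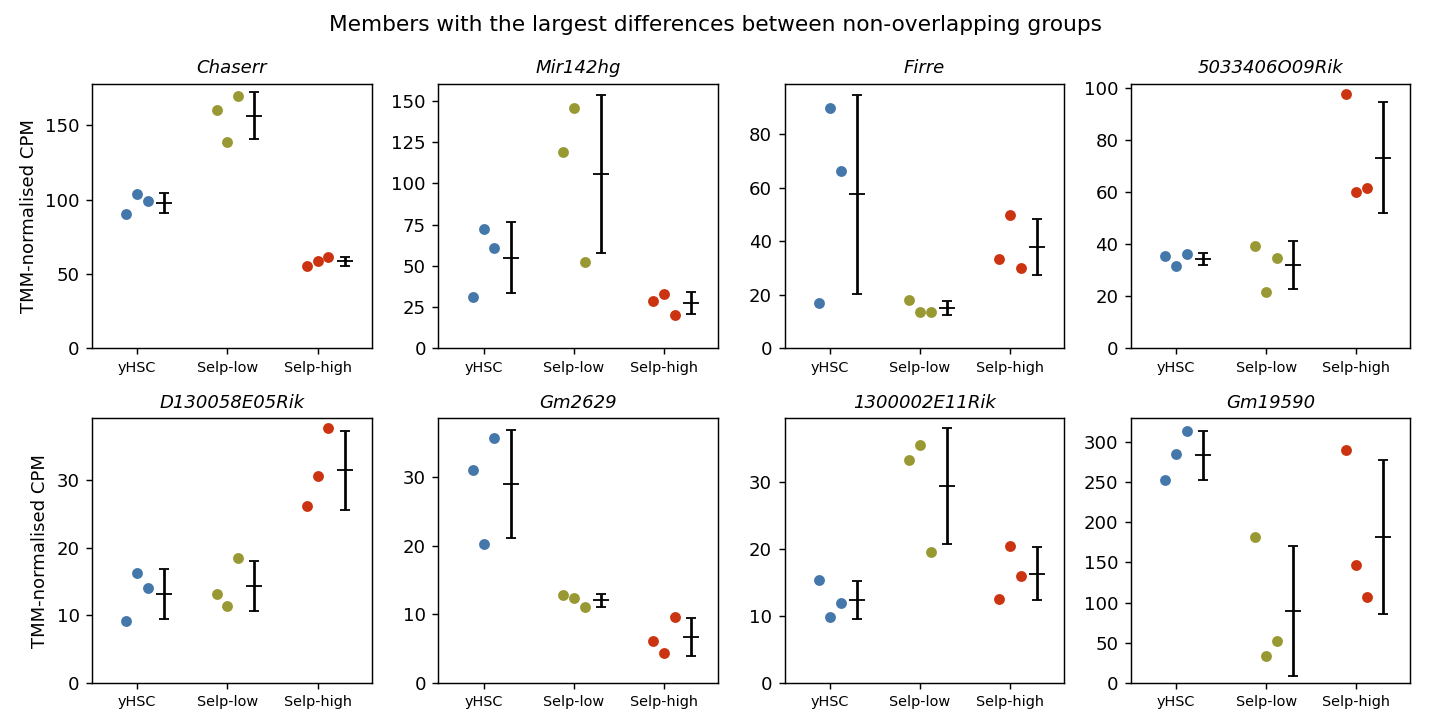
TMM-normalised CPM of 8 members with large differences between non-overlapping groups, 1 panel each, with 3 libraries per group as points and the group mean ± SD as a black bar. In the Chaserr panel the 3 groups stand apart (90.4 to 104, 139 to 170 and 55.2 to 61.3 CPM), and in the 5033406O09Rik and D130058E05Rik panels the Selp-high libraries lie above all others.

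Selp_high paHSCs were compared with yHSCs to ask what distinguishes the P-selectin-rich pre-aged cells from young ones. Again 0 members passed the edgeR threshold, whereas 33 of 20017 genes (0.165%) did. Unadjusted p was under 0.05 for 10 members (11%), 3 higher and 7 lower, against 7.59% of all genes and 7.93% of the coding genes with the same minimum. Groups did not overlap for 8 members that were higher (8.79%, all genes 8.52%) and 7 that were lower (7.69%, all genes 5.28%). The member median was -0.16, the median of all genes tested -0.03 and that of the coding genes 0.02. DESeq2 called 3.32% of genes and 2 members, D130058E05Rik (higher) and Gm2629 (lower), and with the replicate number as a block 3.77% of genes and 3 members. Same-numbered libraries did not deviate together in this comparison.

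Gm2629, a transcript over 5 kb from any coding gene, had the largest fold change of the members in this comparison. It was 31.1, 20.3 and 35.7 CPM in yHSCs, 12.8, 12.4 and 11 CPM in Selp_low paHSCs and 6.15, 4.29 and 9.68 CPM in Selp_high paHSCs, and no group overlapped another. Both pre-aged groups lay below the young one, by -2.14 (SE 0.40, edgeR adjusted p = 0.141, DESeq2 adjusted p = 8.08e-05) for Selp_high and -1.22 (SE 0.30, edgeR adjusted p = 0.332) for Selp_low paHSCs. These comparisons share the yHSC libraries. DESeq2 called the first whichever library was left out. Gm2629 was also the member second nearest to the CPM minimum, so a transcript that was lower still in Selp_high paHSCs would not be among the members.

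D130058E05Rik and 5033406O09Rik stood above yHSCs as they stood above Selp_low paHSCs. D130058E05Rik was 9.1, 16.3 and 14.1 CPM in yHSCs (1.23, SE 0.33, edgeR adjusted p = 0.313, DESeq2 adjusted p = 0.0201, a call kept in only 1 of 6 fits that left out a library, that without Selp_high replicate 1, while the edgeR fold change stayed between 1.04 and 1.45), and 5033406O09Rik was 35.5, 31.8 and 36.1 CPM (1.06, SE 0.28, edgeR adjusted p = 0.314). Neither differed by more than 0.18 on the log2 scale between Selp_low paHSCs and yHSCs. AU020206, an intergenic transcript, was 15.3, 25.5 and 19.7 CPM in yHSCs and 31.6, 49.5 and 31.8 CPM in Selp_high paHSCs (0.87, SE 0.34, edgeR adjusted p = 0.59), and at 43.6, 49.7 and 24.3 CPM the Selp_low libraries overlapped both. Lower in Selp_high paHSCs without overlap were also E130307A14Rik, which starts 102 bases from the start of the translesion polymerase gene Rev3l (-0.87, SE 0.27, edgeR adjusted p = 0.431), and Norad, at 60.8, 118 and 93.7 CPM against 122, 135 and 149 CPM (-0.60, edgeR adjusted p = 0.743).

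The comparison of Selp_low paHSCs with yHSCs asked what separates pre-aged cells with low P-selectin from young ones. No member and 0% of the 20437 genes tested passed the edgeR threshold. An unadjusted p under 0.05 was found for 13 members (14.3%), 6 higher and 7 lower, compared with 11.3% of all genes and 15.3% of the coding genes with the same minimum. Groups did not overlap for 10 members that were higher (11%, all genes 9.59%) and 8 that were lower (8.79%, all genes 6.74%). The member median was 0.10, that of all genes tested 0.08 and that of the coding genes 0.01. DESeq2 called 2.57% of genes and 0 members, and with the replicate number as a block 2.58% of genes and 1 member, Gm19590 (lower).

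The transcript 1300002E11Rik, which overlaps Map3k13 on the same strand, was 33.3, 35.5 and 19.5 CPM in Selp_low paHSCs and 15.4, 9.78 and 12 CPM in yHSCs (1.29, SE 0.36, edgeR adjusted p = 0.332), and it was the only member that limma with voom quality weights called (adjusted p = 0.0454). Map3k13, a kinase gene, had a mean of 0.472 CPM in the first group and 0.596 CPM in the second. ENSMUSG00000120250, beside the chromatin remodelling gene Bicra, was 23, 30.8 and 15.8 CPM against 12.3, 11.6 and 12 CPM (1.01, SE 0.33, edgeR adjusted p = 0.351). The transcript 2810001G20Rik, antisense to Cox10, was 10.9, 9.88 and 12.8 CPM against 8.5, 6.33 and 5.66 CPM (0.74, SE 0.33, edgeR adjusted p = 0.463).

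On the lower side, Gm19590 was 252, 285 and 313 CPM in yHSCs and 182, 33.5 and 52 CPM in Selp_low paHSCs (-1.61, SE 0.63, edgeR adjusted p = 0.403). Summed HSC markers in these Selp_low libraries were 1490, 1290 and 796 CPM, of which Ly6a alone was 635, 879 and 69.6 CPM. In Selp_low paHSCs over yHSCs, 6 of the 9 markers lay below 0 and 3, Ly6a among them, above 0 (median -0.94). The part of these markers in the Gm19590 result was not tested. Without Selp_low replicate 1, the highest, the fold change of Gm19590 was -2.70 and DESeq2 called it (adjusted p = 2.74e-08). In Selp_high paHSCs, at 290, 147 and 107 CPM, Gm19590 overlapped both groups. ENSMUSG00000120166, an intergenic transcript on chromosome 5, was 36, 65.8 and 71.1 CPM in yHSCs and 33.7, 25.6 and 22.6 CPM in Selp_low paHSCs (-1.02, SE 0.32, edgeR adjusted p = 0.342).

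**Figure D4:**
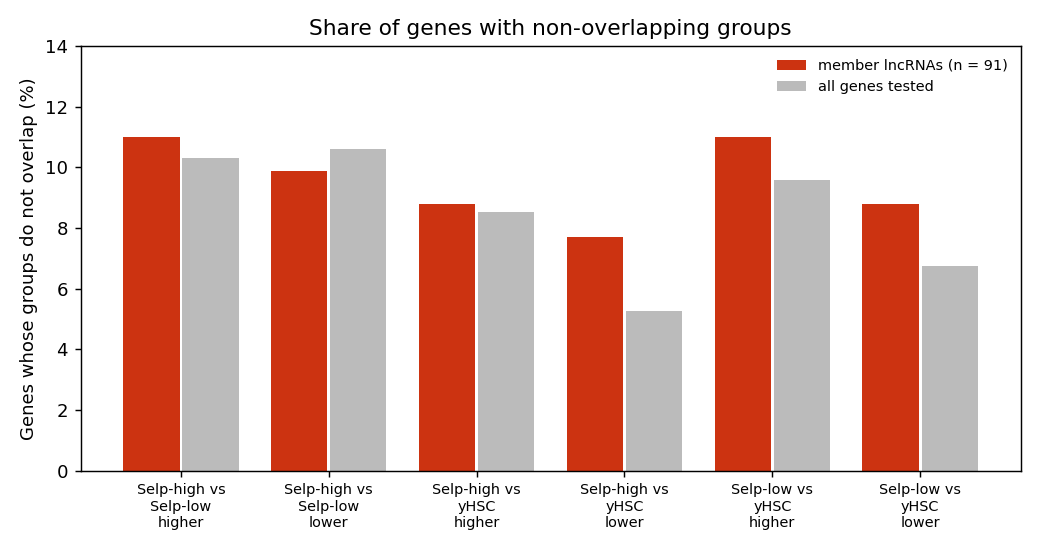
Percent of the 91 members (red) and of all genes tested (grey) for which the 3 libraries of one group lie wholly above or wholly below the 3 of the other, for each comparison and direction. The member bars, 7.69% to 11%, stand near the grey bars, 5.28% to 10.6%.

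Of 6 listed lncRNAs with known roles in nuclear organization, 5 were members, and 0 of these were called by edgeR or by DESeq2 without a block. DESeq2 with the replicate block called Malat1 lower (-1.43, adjusted p = 0.00398) and Firre higher (1.29, adjusted p = 0.00279) in Selp_high than in Selp_low paHSCs. Malat1 was 466, 509 and 283 CPM in yHSCs, 1553, 1359 and 304 CPM in Selp_low paHSCs and 710, 253 and 184 CPM in Selp_high paHSCs, so its highest values were in Selp_low replicates 1 and 2 and the groups overlapped. Neat1, the scaffold of paraspeckles, spanned 55.3 to 258 CPM in yHSCs alone, wider than any difference between group means. All 5, which include Firre, Kcnq1ot1 and the mainly cytoplasmic Norad, were below 0 on the log2 scale in Selp_high paHSCs over yHSCs. Their median was -0.60, against -0.16 for the 91 members, 54 of them below 0, and -0.03 for all genes tested. Groups did not overlap for 1 of the 5, against 5.28% of all genes that were lower without overlap. Of 11 proteins that bind Malat1 or build paraspeckles, 0 were called in any comparison by edgeR or by DESeq2 without a block, and their median in Selp_high over Selp_low paHSCs was -0.12. Tardbp, an RNA-binding protein gene of this list, was lower there without overlap (-0.57, edgeR adjusted p = 0.386).

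The 3 members from the X inactivation centre were Xist, which coats the silenced X chromosome, Ftx and 5530601H04Rik. Xist was detected in all 9 libraries, which came from female mice, at 23, 59.3 and 30.1 CPM in yHSCs, 43.2, 107 and 23.1 CPM in Selp_low paHSCs and 14.3, 60.7 and 21.8 CPM in Selp_high paHSCs. In each group replicate 2 was highest. Its fold changes of -0.85, -0.25 and 0.70 in the 3 comparisons, in the order given above, had edgeR adjusted p of 0.665, 0.999 and 0.791. Of 13 proteins that work with Xist, 0 were called in any comparison by either tool, and DESeq2 with the replicate block called 1, Smchd1, lower in Selp_high than in Selp_low paHSCs (-1.02, adjusted p = 0.0385). The member 5530601H04Rik, which starts 147 bases from Pbdc1, was lower in Selp_low paHSCs than in yHSCs without overlap (54.6, 32.1 and 42.7 against 62.5, 70 and 76.8 CPM, -0.65, edgeR adjusted p = 0.413), and Pbdc1 moved the other way (0.52, edgeR adjusted p = 0.505).

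Of 23 listed snoRNA hosts, 10 were members. In Selp_high paHSCs 8 of the 10 lay below yHSCs, with a median of -0.46 against -0.03 for all genes, and 8 of the 10 lay below Selp_low paHSCs, with a median of -0.22 against -0.11. Neither count came from called genes, since 0 of the 10 passed in any comparison by edgeR or DESeq2. Gas5, which accumulates when growth stops, was 214, 385 and 338 CPM in yHSCs, 303, 267 and 249 CPM in Selp_low paHSCs and 265, 220 and 229 CPM in Selp_high paHSCs. The groups of Snhg5 did not overlap between Selp_high and either of the others (39.3, 33.8 and 45.3 CPM, compared with 50.1, 46.8 and 66.6 and with 46.2, 64.2 and 66.5 CPM). For 2410006H16Rik, another host printed above, Selp_high libraries at 25.7, 33.5 and 32.5 CPM lay below Selp_low libraries at 48, 49.6 and 47.5 CPM (-0.67, SE 0.23, edgeR adjusted p = 0.348). Snhg20 and Snhg16 were the 2 hosts above 0 in Selp_high over Selp_low paHSCs (0.59 and 0.74).

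Proteins that package snoRNAs and those that remove short-frame transcripts were read beside the hosts. Of 11 snoRNP genes, 5 were higher without overlap in Selp_low paHSCs than in yHSCs, among them Nop10 (1.25, edgeR adjusted p = 0.332) and Nhp2 (1.22, edgeR adjusted p = 0.332), against 9.59% of all genes, and 0 were called by either tool. Fibrillarin (Fbl), the methyltransferase of box C/D particles, was lower in Selp_high than in Selp_low paHSCs without overlap (-0.71, edgeR adjusted p = 0.547). Snhg and Gas5 transcripts are known targets of nonsense-mediated decay. Among 14 factors of that pathway, 4 were lower and 1 higher without overlap in Selp_high than in Selp_low paHSCs, against 10.6% and 10.3% of all genes, for example Magoh (-0.88, edgeR adjusted p = 0.338) and Upf3b (-0.71, edgeR adjusted p = 0.338), and none was called.

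Dleu2, the host of miR-15a and miR-16, stayed between 5.92 and 20 CPM in all libraries, and Ftx between 6.86 and 21.8 CPM. Lockd, made beside the cell cycle inhibitor gene Cdkn1b, was 32.7, 8.3 and 8.89 CPM in yHSCs, 18.5, 35 and 42.4 CPM in Selp_low paHSCs and 8.42, 18.4 and 22.1 CPM in Selp_high paHSCs. Its yHSC values overlapped those of both pre-aged groups, and DESeq2 with the replicate block called it lower in Selp_high than in Selp_low paHSCs (-1.01, adjusted p = 0.00985). Cdkn1b was lower in Selp_high than in Selp_low paHSCs without overlap (4.29, 7.93 and 7.76 CPM against 8.85, 14.2 and 12.5 CPM, -0.84, edgeR adjusted p = 0.447). Oip5os1 was 90.9, 48.8 and 48.6 CPM in yHSCs, 88, 104 and 92.1 CPM in Selp_low paHSCs and 76.4, 156 and 71.2 CPM in Selp_high paHSCs, and its groups overlapped in all 3 comparisons.

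**Figure D5:**
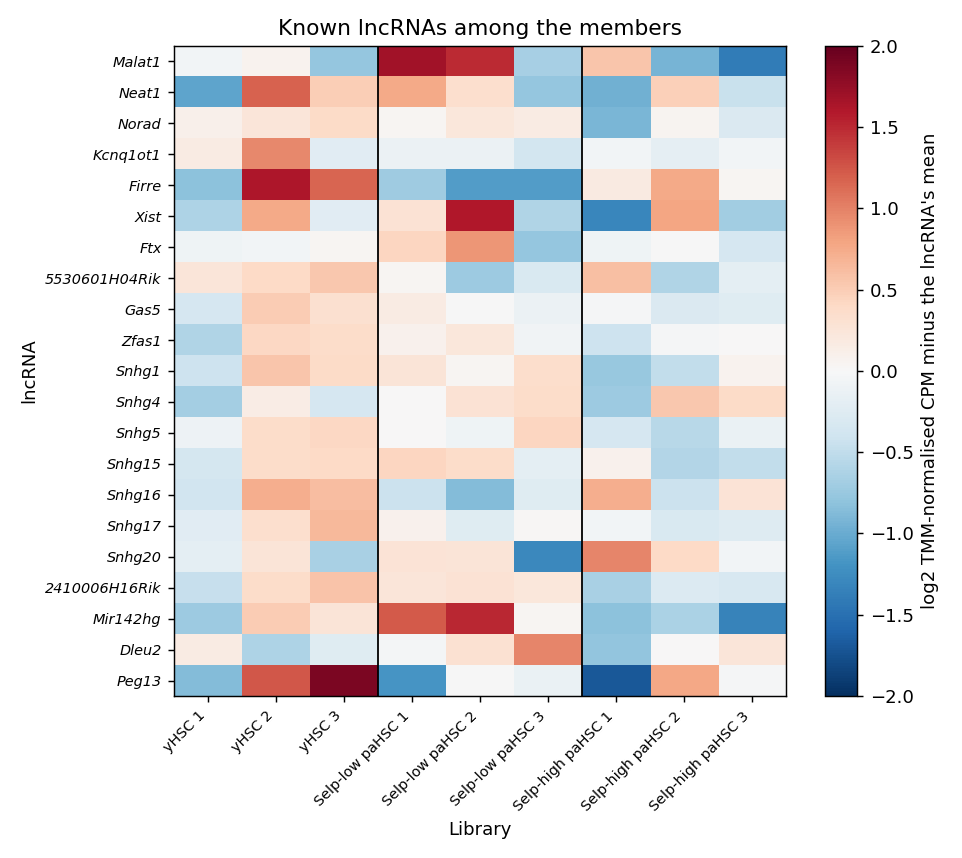
Difference of log2 TMM-normalised CPM from each lncRNA's mean over the 9 libraries (colour, log2 units), for the 21 members from the fixed lists of nuclear, X inactivation, snoRNA host, miRNA host and imprinted lncRNAs (rows), with libraries as columns and black lines between the groups. Mir142hg, 2410006H16Rik and Firre separate the Selp-low from the Selp-high libraries, whereas in rows such as Xist, whose replicate 2 is highest in each group, the groups overlap.

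The direction of a lncRNA was shared with its neighbour in about as many pairs as not. Of the 35 members that start within 1 kb of an opposite-strand coding start, 19 (54.3%) had the same sign of fold change as that gene in Selp_high over Selp_low paHSCs, 21 (60%) in Selp_high paHSCs over yHSCs and 17 (48.6%) in Selp_low paHSCs over yHSCs. For ENSMUSG00000120992 and Vars the values were -0.50 and 0.53 in the first of these comparisons, with Vars at 327 CPM in Selp_high and 225 CPM in Selp_low paHSCs on average.

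The shares of large fold changes are given without a test. A change of at least 1 on the log2 scale, whatever its p, was seen for 12.1% of members and 8.47% of those coding genes in Selp_high over Selp_low paHSCs, for 6.59% and 5.29% in Selp_high paHSCs over yHSCs and for 15.4% and 8.75% in Selp_low paHSCs over yHSCs. LncRNAs outside the members that were deep enough to test gave 41.6%, 35% and 24.7%, at lower counts.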

How the data were processed

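Bulk RNA-seq of 9 libraries (3 groups of 3 biological replicates) was deposited by the authors as raw read counts per gene for 56748 genes. Per the labels, cDNA was made with a SMARTer Ultra Low RNA kit, which does not mark strand and adds no molecular identifiers. The submitters' processing notes name fastp, HISAT2 2.2.1, featureCounts 2.0.6, DESeq2 1.42.0 and CASAVA 1.8 with build mm39. For the annotation release, strand and multi-mapped reads, settings were not given in the sources used here.

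Members were lncRNAs with at least 5 CPM (count over column total) in every library. The members and the gene lists were chosen with earlier results of these data known. Levels are CPM on TMM library sizes. Each pair of groups was fitted alone over all genes with edgeR 4.0.16 (R 4.3.3; quasi-likelihood test, TMM, filterByExpr, Benjamini-Hochberg adjustment), and a call needed an adjusted p of at most 0.05 and a log2 fold change of at least 1 in size. DESeq2 1.42.0, limma 3.58.1 with voom quality weights, other normalisation factors and filters, and fits without each library were alternatives. The fits were tested on simulated data. All 91 members passed the low-count filter in each comparison. An exact permutation test of 3 against 3 libraries cannot give a two-sided p below 0.1, so none was used. Same-numbered libraries deviated together between the Selp groups (correlations of 0.177, 0.277 and 0.303), though the labels name no pairing. Between Selp_high paHSCs and yHSCs the values were -0.412, -0.417 and 0.0525. There, Selp_high replicate 1 with yHSC replicate 2 gave 0.449, and Selp_high replicate 2 with yHSC replicate 1 gave 0.407. Between Selp_low paHSCs and yHSCs the same numbers gave 0.0917, 0.028 and 0.0696. P-values set a difference between groups against the estimated spread between these libraries. Named genes were the list members, the 10 members highest per length, those called by edgeR or DESeq2, per comparison and direction the 3 with the largest fold change whose groups did not overlap, the 3 with the narrowest and the 3 with the widest spread, the 3 on either side of the minimum, coding neighbours, and at most 3 of a coding list. Sequences are from RefSeq (GRCm38.p6) and GENCODE M21 (GRCm38), and positions of the counted genes are mm39.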

Additional observations from a re-analysis of the deposited data

How the results depend on the processing

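With edgeR, 0 members were called in each comparison under other normalisation factors, a mean of at least 10 counts, the newer quasi-likelihood setting, one fit of all libraries, the replicate block and each fit without a library (range 0 to 0). Without a filter 1 member was called in Selp_high over Selp_low paHSCs (Mir142hg) and 1 in Selp_high paHSCs over yHSCs (Gm2629), and limma called 1 in Selp_low paHSCs over yHSCs (1300002E11Rik). DESeq2 called 2, 2 and 0 members in the 3 comparisons, in that order. With the replicate block DESeq2 called 12, 3 and 1 (Gm19590). Leaving out each library, DESeq2 called 0 to 6 members in the first, 1 to 6 in the second and 0 to 9 in the third, with 6 without Selp_low replicate 3, 6 without Selp_high replicate 1, and 9 without Selp_low replicate 3 or 8 without yHSC replicate 1. The share of all genes called is not given for these fits, so their counts cannot be read as particular to the members. The DESeq2 fits with the block and without a library were chosen after seeing the data. The cause was not tested. The same numbers did not pair the libraries of yHSCs with either pre-aged group.

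The number of members was 163 at a minimum of 3 CPM, 48 at 10 CPM, 126 with TMM library sizes and 303 for a mean of at least 5 CPM, and 91 to 133 without a library, the highest without Selp_low replicate 2. None of the named members' fold changes recomputed under the alternatives changed direction. The 91 members take under 1% of the counts of each library, but each has at least 124.3 counts in every library. Without molecular identifiers these counts do not give numbers of molecules, and what limited the calls was not tested. The member medians without a library ran from -0.25 to 0.05, from -0.34 to -0.01 and from -0.02 to 0.14, so the first and the third crossed 0.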
